A study of Mus musculus with 14 samples.

Results

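The genes examined were 9 transcription factors that act in the formation of horizontal and amacrine cells, the early-born interneurons of the retina: Onecut1, Onecut2, Onecut3, Prox1, Foxn4, Tfap2a, Tfap2b, Tfap2c and Barhl2. They were taken by name, with no measured value in the rule, from 22367 protein-coding genes of the GENCODE vM1 annotation of the mouse genome assembly mm9, and all 9 were found there. The data are the H3K27ac ChIP-Seq regions of the embryonic day 14 (E14) retina of CD1 mice, called once on 2 replicate libraries together against 1 isotype control library. The labels describe the material as retinal progenitor cells (RPCs), whereas the methods of the study describe chromatin from whole dissected retinas, which at this age also hold differentiating neurons. The label of this sample names no transgene or Lhx2 allele, although the treatment text common to all 14 samples describes Lhx2 conditional knockouts; the other samples were not analysed here. In such bulk chromatin, a mark in fewer cells and a weaker mark in each cell cannot be told apart.

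Acetylation of histone H3 at lysine 27 marks active promoters and active enhancers. Horizontal and amacrine cells arise from progenitors that express Foxn4, a forkhead factor that confers the competence to make both types. Onecut1 and Onecut2, which bind DNA through a cut domain and a homeodomain, and the homeobox factor Prox1 are needed for horizontal cells, and Onecut3 is a close relative of the first pair. Tfap2a and Tfap2b encode AP-2 transcription factors needed in horizontal and amacrine development, Tfap2c encodes a relative of both, and the homeobox factor Barhl2 acts in the choice of amacrine subtypes and in ganglion cell survival.

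The list held 13463 regions, called peaks below. Each has a length, a pileup (the mean number of ChIP fragments over the peak after scaling to the control library), a fold enrichment over the local control background and a q value from the peak caller. The medians over all peaks were 1015 bp, a pileup of 15.06 and a fold enrichment of 4.46, with ranges of 313 to 32865 bp, 6 to 40.22 and 2.06 to 11.1. The caller used 113543038 ChIP tags and 9210563 control tags. Because the replicates had been pooled, no peak has a replicate error, and the values below are descriptions without a test. Marker genes were used to check the label. A peak at the transcription start site (TSS) was present in 10 of 10 retinal progenitor markers, 4 of 6 ganglion cell markers and 2 of 5 photoreceptor precursor markers, against 49.8% of all protein-coding genes, so the last 2 counts lie near the background. The peak of the progenitor marker Six6 also covered the TSS of a neighbour, 4930447C04Rik. None of the 4 lens markers or the 6 markers of other tissues had one. Among the 6 retinal pigment epithelium markers only Pmel had one, and that peak also covered the TSS of its neighbour Cdk2.

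Of the 9 genes, 5 had a peak within 1000 bp of a transcript start: Onecut1, Onecut2, Prox1, Foxn4 and Barhl2. That is 55.6% of the genes, against 49.8% of all protein-coding genes, so the count lies near the background. Among peaks enriched at least 4-fold at a q no higher than 0.001, only that of Prox1 was left, 1 of 9 genes against 37.8% of all protein-coding genes. Onecut3, Tfap2a, Tfap2b and Tfap2c had none. A flanking peak, meaning any other peak in the gene body or within 50 kb of either end, was present for Onecut1, Onecut3, Prox1, Foxn4 and Barhl2, again 5 of 9, against 59.1% of all protein-coding genes. The 3 AP-2 genes had no peak anywhere in their windows, as was the case for 27.9% of protein-coding genes. In total 10 peaks lay in the 9 windows, and no window held more than 2.

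**Figure D1:**
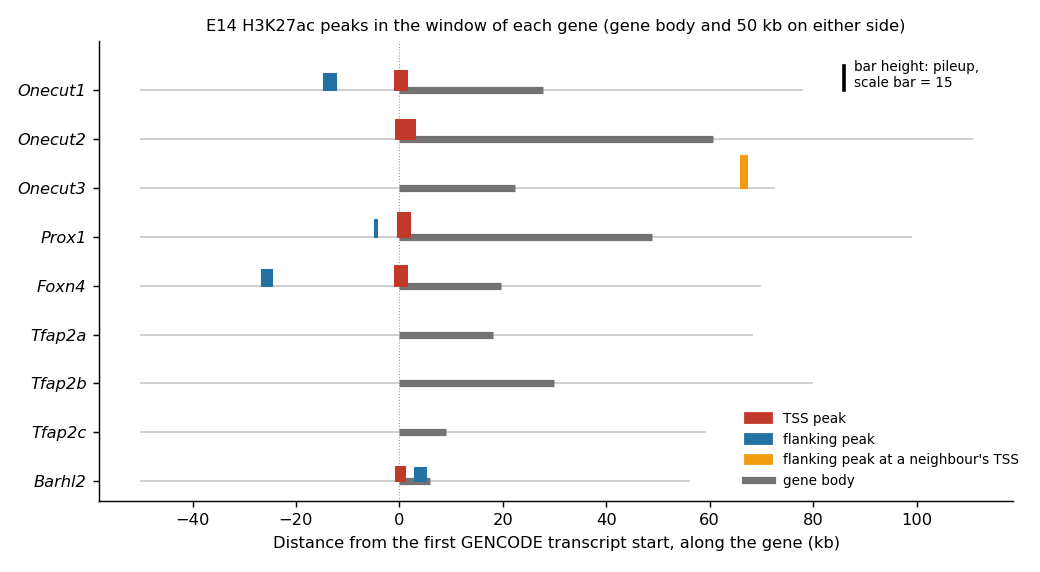
Peaks in the windows of the 9 genes. The horizontal axis is the distance in kb from the first GENCODE transcript start, in the direction of transcription, the thick grey bar is the gene body, the thin line is the window, and the height of each coloured bar is the pileup of the peak. Peaks sit at the start of 5 genes, the windows of Tfap2a, Tfap2b and Tfap2c are empty, and the 1 peak in the window of Onecut3 lies at the start of another gene.

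Foxn4 (ENSMUSG00000042002.5, chr5:114704173-114723816, minus strand, 4 transcript starts) had a TSS peak at chr5:114722264-114724789. It was 2526 bp long, with a pileup of 13.03, a fold enrichment of 3.10 and a q of 0.0107. By length it ranked 626 of 13463 peaks, by pileup 8689 and by fold enrichment 13032. It was therefore a long peak with one of the lowest fold enrichments in the list, at percentile 3.21 of all peaks. The local background implied by its pileup and fold enrichment was 3.53, at percentile 85.6 of all peaks, against a median of 2.36. The TSS peaks of the other genes had implied backgrounds of 3.01 (Onecut1), 2.97 (Onecut2), 2.26 (Prox1) and 1.83 (Barhl2). The implied background is calculated from the fold enrichment itself, and its bearing on the low fold enrichments was not tested. A flanking peak of 2118 bp lay 24.6 kb upstream of the gene, at chr5:114748392-114750509, with a pileup of 10.53 and a fold enrichment of 3.81. No annotated transcript start lay within 1000 bp of it.

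Onecut1 (ENSMUSG00000043013.7, chr9:74709728-74737591, plus strand) had a TSS peak at chr9:74708649-74711208. Its length of 2560 bp ranked 597, its pileup of 12.63 ranked 9049 and its fold enrichment of 3.40 ranked 12019, with a q of 0.00292. A flanking peak at chr9:74694867-74697384, 12.3 kb upstream, was almost as long at 2518 bp, with a pileup of 10.82 and a fold enrichment of 3.84. It covered the start of Gm16551, a non-coding transcript on the same strand.

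Onecut2 (ENSMUSG00000045991.9, chr18:64500002-64560641, plus strand) had the longest peak of the group, at chr18:64499126-64503095. Its 3970 bp ranked 134 among all peaks and placed it in the longest 0.995% of the list. The pileup, 12.64, and the fold enrichment, 3.44, were close to those of Onecut1. It reached 3093 bp past the start into the gene, and it was the only peak in the window of 161 kb.

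Onecut3 (ENSMUSG00000045518.7, chr10:79957651-79980003, plus strand) differed from both relatives. No peak met its start, and the peak nearest to that start lay 60.9 kb away. At 28.4% of protein-coding genes the nearest peak was as far or farther, and the median distance was 4.32 kb. Its window held a peak of 1284 bp at chr10:80023600-80024883, 43.6 kb past the end of the gene, with a pileup of 20.32, a fold enrichment of 5.20 and a q of 7.99e-09. This was the highest pileup among the 10 peaks, but the peak covered the TSS of Rexo1, which encodes an RNA exonuclease, and so is counted here as the promoter of a neighbour.

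Prox1 (ENSMUSG00000010175.6, chr1:191945660-191994559, minus strand) had a TSS peak at chr1:191992423-191995035. Its length of 2613 bp ranked 569. The pileup of 15.26, rank 6516, and the fold enrichment of 4.99, rank 4540, were the highest of the TSS peaks described here and the only ones above the medians of all peaks, and its q of 1.54e-06 was the lowest. The peak also covered the start of the long intergenic non-coding RNA Gm17566, which is annotated on the opposite strand 384 bp from the start of Prox1, so the values cannot be assigned to 1 of the 2 starts. A flanking peak of 681 bp at chr1:191998828-191999508, 4.27 kb upstream, had a pileup of 10.94 and a fold enrichment of 4.19. It was the only peak in the 9 windows shorter than the median of all peaks.

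Tfap2a (ENSMUSG00000021359.8, chr13:40811044-40829192, minus strand), Tfap2b (ENSMUSG00000025927.6, chr1:19198995-19228815, plus strand) and Tfap2c (ENSMUSG00000028640.5, chr2:172375093-172384122, plus strand) had no peak at any of their 2, 3 and 6 transcript starts. The nearest peaks lay 153 kb from the start of Tfap2a, 1150 kb from that of Tfap2b and 108 kb from that of Tfap2c. At 17.2%, 1.94% and 21.2% of protein-coding genes, in the same order, the nearest peak was as far or farther. The start of Tfap2b was thus among the starts most distant from any peak. A gene without a peak had no region that passed the threshold of the caller in the whole retina, which does not show that the mark was absent from every cell.

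Barhl2 (ENSMUSG00000034384.9, chr5:106881533-106887469, minus strand) is the shortest of the 9 genes, at 5.94 kb, and so had the smallest window. The gene had 2 peaks in it, as many as Onecut1, Prox1 and Foxn4 had in theirs. In this smallest window that gave 18.9 peaks per Mb, the highest density of the 9, against a median of 9.67 over all protein-coding genes. Its TSS peak at chr5:106886318-106888316 was 1999 bp long, with a pileup of 9.15, a fold enrichment of 3.59 and a q of 0.00872. Its second peak, of 2387 bp at chr5:106882344-106884730, lay inside the gene, between 2.739 and 5.125 kb downstream of the start, and was longer than the peak at the start. Its pileup of 8.77, rank 12117, and its fold enrichment of 3.43, rank 11870, were lower still, and the pileups of the 2 Barhl2 peaks were the lowest of the 10 peaks described here.

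The 5 TSS peaks shared a long length and, with the exception of Prox1, a low pileup. Their lengths lay at percentiles 90.4 to 99.0 of all peaks, with a median of 2560 bp, against a median of 1093 bp for the TSS peaks of all protein-coding genes. Peaks at least as long as the shortest of them, that of Barhl2, made up 9.63% of the list (1296 peaks). Their pileups ran from 9.15 to 15.26, with a median of 12.64, against 16.41 for the TSS peaks of all protein-coding genes. In 4 of 5 the pileup was under the median of all peaks, compared with 35.5% of all peaks of 1999 bp or more. Fold enrichment gave the same order of Prox1 against the rest: 4.99 for Prox1 and 3.10 to 3.59 for the others, against a median of 4.46 for all peaks.

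**Figure D2:**
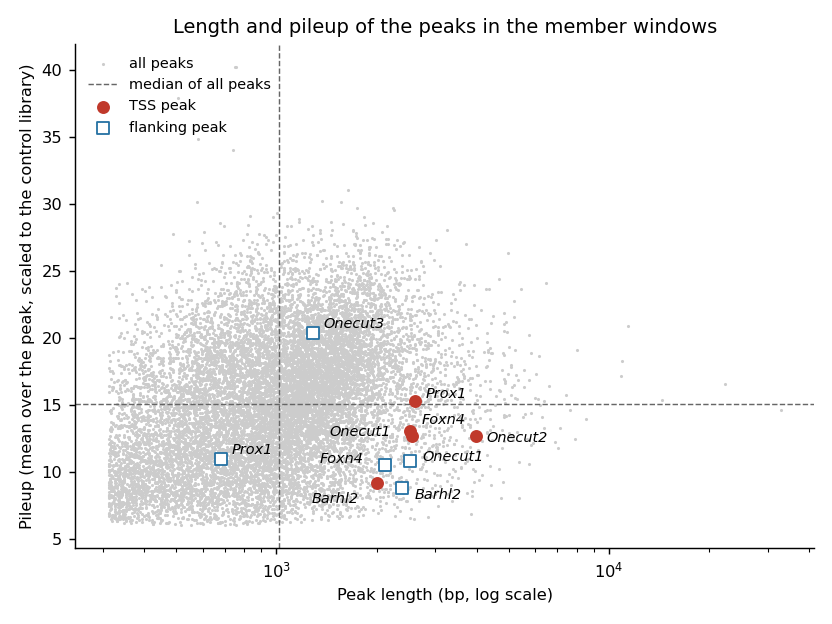
Length and pileup of peaks. Each grey point is 1 of the 13463 peaks, with its length in bp on a logarithmic horizontal axis and its pileup on the vertical axis, red circles are the TSS peaks, blue squares the flanking peaks, and dashed lines the medians of 1015 bp and 15.06. The red circles lie to the right of the median length, and those of Onecut1, Onecut2, Foxn4 and Barhl2 lie below the median pileup.

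Across all peaks longer peaks tended to have a higher pileup, with a Spearman correlation of 0.344 over 13463 peaks of 1 pooled list, so the pairing of a long length with a low pileup in Onecut1, Onecut2, Foxn4 and Barhl2 ran against the general trend. The pairing was not limited to these genes. The progenitor markers Ccnd1 (7915 bp, pileup 12.43) and Fgf15 (4842 bp, 12.28) had longer peaks than Onecut2 with a lower pileup. Pileup alone, whatever the length, was also counted in listed genes with a TSS peak. It was under the median of all peaks in 5 of 10 progenitor markers and 6 of 9 other horizontal and amacrine factors. Ganglion cell markers gave 3 of 4, photoreceptor precursor markers 2 of 2, differentiated horizontal and amacrine genes 3 of 3 and paralogues of the members 0 of 2. A median splits all peaks evenly, so these counts do not measure the pairing with length. Among peaks of 80 to 125% of its own length, the peak of Onecut1 lay at percentile 21.7 for pileup, that of Onecut2 at 23.2, that of Prox1 at 35.5, that of Foxn4 at 22.9 and that of Barhl2 at 5.13. For fold enrichment the same peaks lay at percentiles 2.75, 3.86, 52.6, 0.314 and 6.93. Prox1 alone was above the middle of peaks like it, and only by fold enrichment.

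The number of ChIP tags behind each value, estimated from pileup, length, the fragment length of 313 bp and the ratio of the libraries, was 720 for Barhl2, 1273 for Onecut1, 1296 for Foxn4, 1570 for Prox1 and 1976 for Onecut2. Exact 95% Poisson intervals on these tags span 7.37% on either side for Barhl2 and 4.43% for Onecut2, and cover counting error only. The pileups of Onecut1, Onecut2 and Foxn4, 12.63, 12.64 and 13.03, lay within each other's counting error. Barhl2 lay below these and Prox1 above them by more than counting error, and neither difference can be set against biological replicates. Summed over its length, the signal of Onecut2 ranked 461 of all peaks, Prox1 1000, Foxn4 1724, Onecut1 1812 and Barhl2 5344, a measure in which the long length offsets the low pileup.

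**Figure D3:**
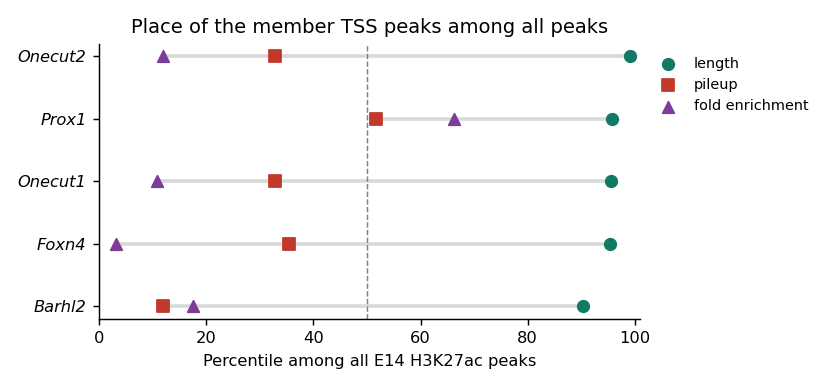
Percentile of each TSS peak among all peaks, by length, by pileup and by fold enrichment. The horizontal axis is the percentile from 0 to 100, each row is 1 gene and the dashed line marks the middle of the list. Length lies at 90.4 or above in all 5 rows, and pileup and fold enrichment lie left of the dashed line for all but Prox1.

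Measured from the first GENCODE start, all 5 TSS peaks reached farther into the gene than upstream of it. The peak extended 1480 bp downstream and 1079 bp upstream of the start for Onecut1, 3093 and 876 bp for Onecut2, 2136 and 476 bp for Prox1, 1552 and 973 bp for Foxn4, and 1151 and 847 bp for Barhl2. The same direction was seen in 72.4% of the 8300 protein-coding genes whose start lay inside a TSS peak, so it is common. The direction depended on the start used, a comparison added after the data were seen. From the RefSeq start of Barhl2 the peak reached 867 bp downstream and 1131 bp upstream, and from the second RefSeq start of Prox1 971 and 1641 bp, whereas it was kept at the RefSeq starts of Onecut1 and Foxn4 and at the first of Prox1. What the peaks covered differed with the gene structure. In Onecut1 and Barhl2, 57.9% and 57.6% of the peak lay in exons and none in introns, the remainder being upstream sequence. In Prox1 66.0% of the peak was intronic, in Foxn4 51.1% and in Onecut2 46.1%. The second peak of Barhl2 was 76.1% intronic and 23.9% exonic.

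The flanking peaks differed among themselves in length. Those of Onecut1, Foxn4 and Barhl2 were long, at percentiles 95.3, 92.0 and 94.5, and that of Prox1 was short, at percentile 27.4. Setting aside the Rexo1 promoter, their pileups ran from 8.77 to 10.94, and in Onecut1, Prox1, Foxn4 and Barhl2 the flanking peak had a lower pileup than the TSS peak of the same gene, although for Barhl2 the difference was within the counting error. By fold enrichment the order turned for Onecut1 (3.84 flanking, 3.40 at the TSS) and Foxn4 (3.81 and 3.10), and it held for Prox1 (4.19 and 4.99) and Barhl2 (3.43 and 3.59). Of these 4 peaks, those of Prox1, Foxn4 and Barhl2 did not lie at another annotated start. The central 300 bases of the upstream peaks of Prox1 (chr1:191999019-191999318) and Foxn4 (chr5:114749301-114749600) are shown because both lie outside the genes and at no annotated start, on the plus strand of mm9, with CpG dinucleotides in capitals.
Prox1 upstream peak: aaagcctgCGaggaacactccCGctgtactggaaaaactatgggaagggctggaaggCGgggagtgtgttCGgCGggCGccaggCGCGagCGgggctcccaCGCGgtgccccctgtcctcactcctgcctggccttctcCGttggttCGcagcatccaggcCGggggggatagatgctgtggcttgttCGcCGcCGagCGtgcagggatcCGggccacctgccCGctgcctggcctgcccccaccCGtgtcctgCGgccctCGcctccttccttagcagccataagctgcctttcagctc
Foxn4 upstream peak: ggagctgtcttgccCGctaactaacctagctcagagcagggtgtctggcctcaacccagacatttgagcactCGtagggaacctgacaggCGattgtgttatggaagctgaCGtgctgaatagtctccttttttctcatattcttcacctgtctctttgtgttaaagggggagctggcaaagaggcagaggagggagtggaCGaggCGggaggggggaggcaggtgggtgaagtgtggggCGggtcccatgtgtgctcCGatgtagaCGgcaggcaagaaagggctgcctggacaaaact
The centre of the Prox1 peak held 23 CpG dinucleotides and 67.7% G and C, near the medians of 24 and 65% for peak centres, and that of the Foxn4 peak held 9 and 55.7%.

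Promoter sequences were taken from the RefSeq table (GRCm38.p6) and placed on mm9 by exact match, which gave 8 stretches of 250 bases before a RefSeq start for Onecut1, Prox1, Foxn4, Barhl2, Tfap2a and Tfap2b. Those of Onecut1 (chr9:74709478-74709727, plus strand), Prox1 (chr1:191994707-191994956, minus strand) and Foxn4 (chr5:114723817-114724020, minus strand, the 204 bases outside the annotated exon) carry a TSS peak, and those of Tfap2a (chr13:40830290-40830539, minus strand) and Tfap2b (chr1:19201885-19202134, plus strand) carry none. They are printed in the direction of transcription with CpG dinucleotides in capitals, as examples of this feature. Prox1 and Tfap2a each had another stretch, not printed, with 11 and 10 CpG dinucleotides, closer than the printed 20 and 10.
Onecut1: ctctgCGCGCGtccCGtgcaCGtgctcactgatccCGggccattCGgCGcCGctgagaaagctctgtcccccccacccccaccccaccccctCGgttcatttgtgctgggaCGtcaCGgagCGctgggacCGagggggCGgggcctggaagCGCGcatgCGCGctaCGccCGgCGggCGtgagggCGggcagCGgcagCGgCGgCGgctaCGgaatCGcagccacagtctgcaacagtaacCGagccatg
Prox1: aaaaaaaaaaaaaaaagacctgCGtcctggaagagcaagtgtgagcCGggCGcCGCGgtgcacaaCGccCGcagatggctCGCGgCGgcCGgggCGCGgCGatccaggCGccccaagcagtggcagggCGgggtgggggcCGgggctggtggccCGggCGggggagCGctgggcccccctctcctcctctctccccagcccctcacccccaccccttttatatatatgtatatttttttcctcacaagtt
Foxn4: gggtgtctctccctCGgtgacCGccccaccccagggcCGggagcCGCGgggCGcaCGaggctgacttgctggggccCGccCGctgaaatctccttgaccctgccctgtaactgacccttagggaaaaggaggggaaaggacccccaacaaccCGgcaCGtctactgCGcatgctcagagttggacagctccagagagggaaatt
Tfap2a: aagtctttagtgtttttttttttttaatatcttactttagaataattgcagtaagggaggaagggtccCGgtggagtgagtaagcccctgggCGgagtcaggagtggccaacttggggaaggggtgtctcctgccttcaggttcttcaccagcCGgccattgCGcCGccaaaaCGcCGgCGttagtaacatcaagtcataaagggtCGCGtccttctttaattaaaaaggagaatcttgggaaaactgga
Tfap2b: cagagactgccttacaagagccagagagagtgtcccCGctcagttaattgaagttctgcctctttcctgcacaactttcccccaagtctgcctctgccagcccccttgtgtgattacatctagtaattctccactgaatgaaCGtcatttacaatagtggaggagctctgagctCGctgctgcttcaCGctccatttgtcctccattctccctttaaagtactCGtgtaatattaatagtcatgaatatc
The 250 bases of Barhl2, which fall in an annotated exon and are not printed, held 36 CpG dinucleotides, those of Onecut1 31, those of Prox1 20 and, at a second RefSeq start 1165 bp downstream of the GENCODE start, 11, and the full 250 bases of Foxn4 17. Both stretches of Tfap2a held 10, and that of Tfap2b, before a RefSeq start 3140 bp downstream of its first GENCODE start, held 5. Genes were matched to this table by symbol, which covered 7857 of the 11147 genes with a TSS peak and 6906 of the 11220 without one. Over the matched genes with a TSS peak the median was 17 (quartiles 10 to 24, 10161 promoters), and over those without one it was 3 (quartiles 1 to 8, 7907 promoters). Tfap2a therefore lay at the lower quartile of matched genes with a peak and above the upper quartile of those without one. G and C made up 74.8% of the stretch of Barhl2, 71.6% of that of Onecut1, 64.8 and 56% of those of Prox1 and 62.8% of that of Foxn4, and 60.4 and 47.6% of those of Tfap2a and 46.4% of that of Tfap2b. By G and C content the stretches with and without a peak therefore overlapped, through the 56% of Prox1 and the 60.4% of Tfap2a. By CpG count they did not, with 11 to 36 for stretches with a peak and 5 to 10 for those without. The median G and C content over all 32841 promoters was 52.4%.

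**Figure D4:**
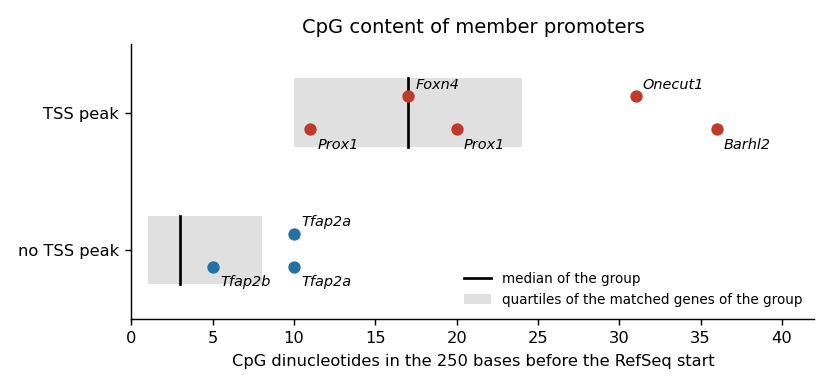
CpG dinucleotides in the 250 bases before each RefSeq start. The horizontal axis is the count per stretch, each point is 1 RefSeq start of a named gene, the grey boxes span the quartiles of the matched genes with or without a TSS peak, and the black lines are the medians of 17 and 3. Onecut1 and Barhl2 lie above the box for genes with a peak, and both Tfap2a starts lie above the box for genes without one.

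The stretches were searched on both strands for 3 motifs, the ONECUT core (ATCGAT or ATCAAT), the AP-2 core (GCCNNNGGC) and the homeodomain core TAATTA, of which the last was chosen after the data were seen. None of the 8 stretches held the ONECUT core, which occurred in 7.40% of all 32841 promoters, and none held the AP-2 core, which occurred in 13.7%. The homeodomain core occurred in 1 of them, the upstream start of Tfap2a printed above, and in 4.84% of all promoters. In the central 300 bases of the 10 peaks, the ONECUT core and the AP-2 core were each found once, both in the TSS peak of Onecut1, and the homeodomain core once, in the upstream peak of Onecut1. Among all peak centres the shares were 3.75%, 31.1% and 2.09%. The 30 bases around each match are shown, with the match in capitals. They lie at chr9:74710049-74710078, chr9:74709783-74709812 and chr9:74696069-74696098, all on the plus strand.
ONECUT core, 344 bp after the Onecut1 start: cctcgccgcctctgcccggccacATCGATg
AP-2 core, 65 bp after the Onecut1 start: cgtcaagggaGCCTGGGGCagcaggattct
Homeodomain core, in the upstream peak: cgctttttttttTAATTActaggggaaaaa
A match of this kind is a description of the letters and not a binding site.

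Other genes of the same cell types were compared by lists that had been set beside the 9 genes. Of 18 other transcription factors of horizontal and amacrine cells, 9 had a TSS peak, or 50%, against 49.8% of all protein-coding genes, with a median length of 1905 bp and a median pileup of 14.59. Those in the longest 5% of all peaks were Pax6, a regulator of the whole retinal lineage, with the longest peak of the list at 32865 bp and a pileup of 14.59, Rorb, a nuclear receptor, with 4381 bp and 14.62, and Ebf3, a helix-loop-helix factor, with 2483 bp and 12.56. Ptf1a, which acts downstream of Foxn4 in the same lineage, had no TSS peak, and neither did Lhx1, Neurod1, Neurod2, Neurod4, Neurod6, Ebf1, Dlx2 and Sall3. Of 11 genes used by the differentiated cells, such as those for transmitter synthesis and transport, 3 had a TSS peak (27.3%, against the same 49.8%): Gad2, which makes GABA, Slc6a9, a glycine transporter, and Slc5a7, a choline transporter. Their median pileup was 10.61. Calb1, Calb2, Gad1, Slc32a1, Chat, Th, Gja10 and Sept4 had none.

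Of 7 paralogues of the members, Foxn2 and Foxn3 had a TSS peak (28.6%, against 49.8%), and Foxn1, Prox2, Barhl1, Tfap2d and Tfap2e had none. With the 3 AP-2 genes described above, none of the 5 AP-2 genes of the mouse had a TSS peak in this list. The 10 retinal progenitor markers had longer peaks than the members at a higher median pileup, 5408 bp and 15.005, and 9 of the 10 were in the longest 5% of the list, against 4 of the 5 members with a peak (Onecut1, Onecut2, Prox1 and Foxn4). The 4 ganglion cell markers with a peak had a median of 1671.5 bp and a pileup of 12.7. Pax6, Isl1 and Ebf3 stand in 2 of these lists. These medians are over few genes of a single pooled list and were not tested against each other.

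**Figure D5:**
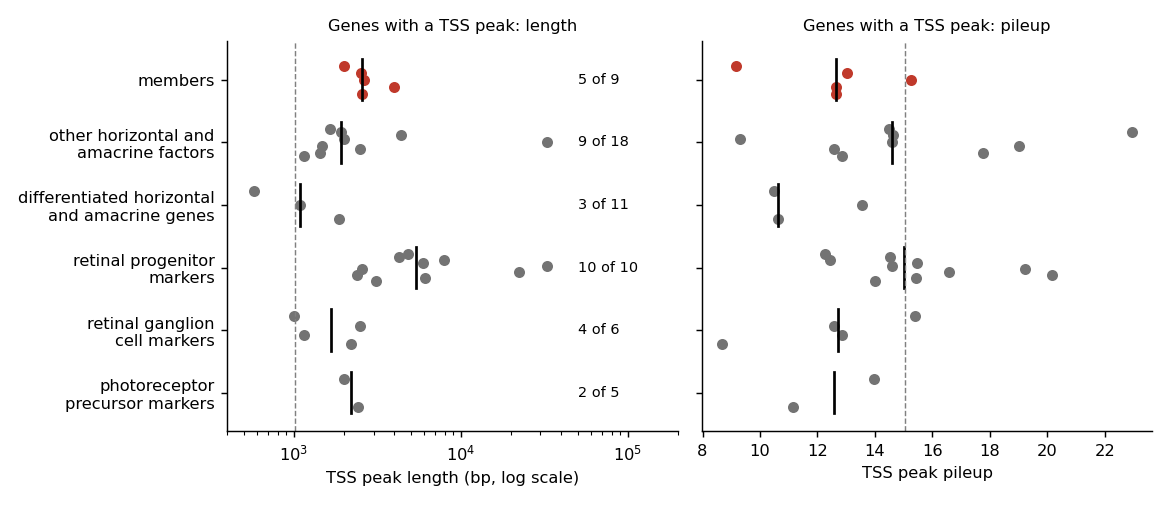
TSS peaks of the 9 genes and of other retinal gene lists. Each point is a gene with a TSS peak, with peak length in bp on a logarithmic axis at the left and pileup at the right, black bars are list medians, dashed lines the medians of all peaks, and the counts give genes with a TSS peak of genes matched. The members lie between 1999 and 3970 bp and the progenitor markers between 2395 and 32865 bp, while pileups overlap between the lists.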

How the data were processed

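H3K27ac was profiled by ChIP-Seq in the E14 retina. Bowtie2 was used by the authors for alignment to mm9, with only uniquely mappable reads and 1 tag per position retained, and MACS 2.1.0.20140616 for calling broad regions on 2 pooled replicates against 1 isotype control (broad cutoff 0.1, q cutoff 0.05, fragment length 313 bp). Per the file headers, the authors' run kept 113543038 ChIP and 9210563 control tags and scaled the larger library towards the smaller. The deposited pileup is a coverage signal averaged over each region. The deposited fold enrichment is a ratio of ChIP pileup over the local background of the control, and the deposited −log10 p-values and q-values are region means. Region length was also deposited. No column of authors' comparisons was present in this list.

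From these values, peaks were joined to GENCODE vM1 with at least 1 bp of overlap. All peaks lay within the mm9 chromosomes. Tfap2a, Tfap2b and Tfap2c, listed there under older symbols, were matched through RefSeq synonyms. A TSS peak lay within 1000 bp of any transcript start, the one nearest a start being used, and a window was the gene body with 50 kb on either side. A percentile is the share of peaks with a value at or below the given one. The implied background was (pileup + 1) divided by the fold enrichment, minus 1, since the caller adds a pseudocount of 1 to both terms. RefSeq promoters (GRCm38.p6) were placed on mm9 by exact match, with no conversion of coordinates. Named genes were all 9 members, listed genes in the top 5% of peaks by length or pileup, listed genes without a TSS peak, and neighbours at a window peak. The members and lists were chosen with earlier results of these data known. Of 12 differentiated-cell genes, Slc18a3 found no match. Alternatives covered stricter peaks, other TSS distances, windows, transcripts and overlaps, merging, and ranking among promoter peaks. The joins were tested on simulated peaks. Computations used Python 3.11.15, numpy 2.4.6, pandas 2.3.3, scipy 1.17.1 and matplotlib 3.10.9.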

Additional observations from a re-analysis of the deposited data

How the results depend on the processing

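Of 43 values recomputed under the alternatives, 31 stayed within 1.5 times (counts) or within the counting interval (percentiles) and 12 moved; the cause was not tested beyond what each alternative removes. As reported, 5 genes had a TSS peak, 5 had a flanking peak, 10 peaks lay in the windows, and the median percentiles of the TSS peaks were 95.6 for length, 32.9 for pileup and 11.96 for fold enrichment. With only the 8628 peaks enriched at least 4-fold at a q no higher than 0.001, 1 gene kept a TSS peak, Prox1, 2 had a flanking peak (Onecut3 and Prox1), 3 peaks were left in the windows, and the percentiles, now of Prox1 alone, were 94.8, 35.9 and 47.4. With windows of 20 kb, 3 genes had a flanking peak, and with windows of 100 kb 21 peaks lay in the windows. With the peak midpoint required inside the zone, 4 genes had a TSS peak, Onecut2 being lost, and the pileup and fold enrichment percentiles were 34.1 and 14.1. Ranked among the 10302 peaks at a protein-coding TSS, they were 20.2 and 8.44. No peaks lay within 1000 bp of each other, so merging joined none. No paired analysis was possible because the replicates had been pooled before peaks were called, and for the same reason no replicate could be left out. The control library, with 9210563 tags, was the shallower one, and how its depth bears on the fold enrichments was not tested.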
